A study of Mus musculus with 6 samples.

Results

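The cartilage genes followed here are 10: 7 that encode matrix proteins other than collagens (Acan, Matn1, Matn3, Hapln1, Prg4, Chad and Clec3a) and the transcription factor genes Sox5, Sox6 and Sox9. They were taken by symbol, and all 10 were found among the 56748 genes counted and passed the filter on low counts that left 18514 genes. RNA was sequenced from whole tibiae of female mice 12 weeks old, in 3 libraries labelled Col1a1+/-, that is with 1 altered copy of a gene for the chains of type I collagen, and 3 labelled wild type. Bones were flushed free of marrow, then frozen and pulverised, and polyadenylated RNA was sequenced. The series title speaks of a mouse model of brittle bone disease (osteogenesis imperfecta type I) and of a treatment that the labels give to none of these 6 samples. The sources used here do not state the kind of Col1a1 allele or the strain. Whether each library is a separate animal is not stated either, so the p-values cover the spread among these libraries only.

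Cartilage covers the joint ends of a long bone and forms the growth plate below them. Its matrix is a net of collagen fibrils filled with aggrecan, a large proteoglycan that holds water and is tied to hyaluronan by a link protein, with smaller adaptor proteins such as matrilins between both networks. SOX9 is the transcription factor that sets and keeps chondrocyte identity, and SOX5 and SOX6, a pair of closely related SOX proteins, act beside it on the genes of the cartilage matrix. SOX6 is also at work outside cartilage, in the fast fibres of skeletal muscle and in maturing red cells. A tibia that keeps its joint ends therefore holds cartilage RNA from joint surface and growth plate. With it comes RNA of bone and of any muscle left on the tibia. How much of the ends each sample kept was not tested.

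Libraries held 26.8 to 32.4 M counts, and levels below are CPM (counts per 1 M of library total) scaled with edgeR's TMM factors. Col1a1 stood at 52880 to 61149 CPM in Col1a1+/- and 36810 to 61347 CPM in wild type, so its level alone did not check the genotype labels. Col1a2, the gene of its partner chain, stood at 68194 to 73118 CPM and 27904 to 49103 CPM (log2 fold change 0.83, adjusted p = 0.159 by edgeR). In CPM, Col1a1 lay below Col1a2 in every Col1a1+/- library and above it in every wild-type library. That comparison was made with the values known and was not tested. Skeletal muscle markers were lower in Col1a1+/-: all 24 were detected in every library, 10 were called lower by edgeR and 23 by DESeq2 (24 at an unadjusted p under 0.05) and 0 higher by either, and their summed level was 19458 to 41708 CPM against 59332 to 93292 CPM in wild type. Wild-type replicate 1 stood apart in 14 neutrophil markers, with a summed level of 5914 CPM against 1024 to 1779 CPM in the other 5 libraries. Bone markers were present throughout, and 8 of 13 osteoblast markers were called higher in Col1a1+/- and none lower, at a summed 13173 to 14592 CPM against 6449.6 to 9383 CPM. The part of muscle, marrow and bone RNA in the results on the matrix genes was not tested beyond the fits with covariates and other scalings given below. In whole tissue, more cells of a type and more RNA per cell cannot be told apart.

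In Col1a1+/- 9 of the 10 genes had a log2 fold change above 0, against 49.1% of all tested genes, and only Sox6 was below 0. By edgeR's quasi-likelihood test, with p-values adjusted over all 18514 genes and a threshold of 0.05, 4 of the 10 rose (Acan, Prg4, Clec3a and Sox9) and 1 fell (Sox6). Among all tested genes 1.43% rose and 2.91% fell, 4.34% in all. At an unadjusted p under 0.05 stood 8 of the 10 and 22.8% of all genes. In 7 of the 10 all 3 Col1a1+/- libraries lay above all 3 wild-type libraries, against 14.0% of all genes, and in Sox6 they all lay below, against 14.5% of all genes (28.6% in either direction). On CPM per library total, without TMM, Sox5 overlapped (7.20 in Col1a1+/- replicate 3, 7.25 in wild-type replicate 1), which left 6 of the 10 above and 1 below, against 16.6% and 12.2% of all genes. The median log2 fold change of the 10 was 1.34, beside -0.01 over all genes, with a range from -0.84 to 2.18. Summed over the 10 genes, Col1a1+/- libraries 1, 2 and 3 gave 3690, 2610.0 and 1767 CPM and wild-type libraries 1208, 1092 and 993 CPM, so that the genotypes did not overlap. Prg4 and Chad made up most of each sum, so it says little of the rarer genes. Prg4 alone gave 1109.5 to 2236 CPM in Col1a1+/- and 562 to 702.5 CPM in wild type. None of the 10 was called when Col1a1+/- replicate 1, wild-type replicate 2 or wild-type replicate 3 was left out, where edgeR called 0, 8 and 0 genes in all (3275, 3783 and 3239 at an unadjusted p under 0.05). In those same fits 7, 9 and 8 of the 10 had an unadjusted p under 0.05, and the median of the 10 was 1.12, 1.47 and 1.18.

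**Figure D1:**
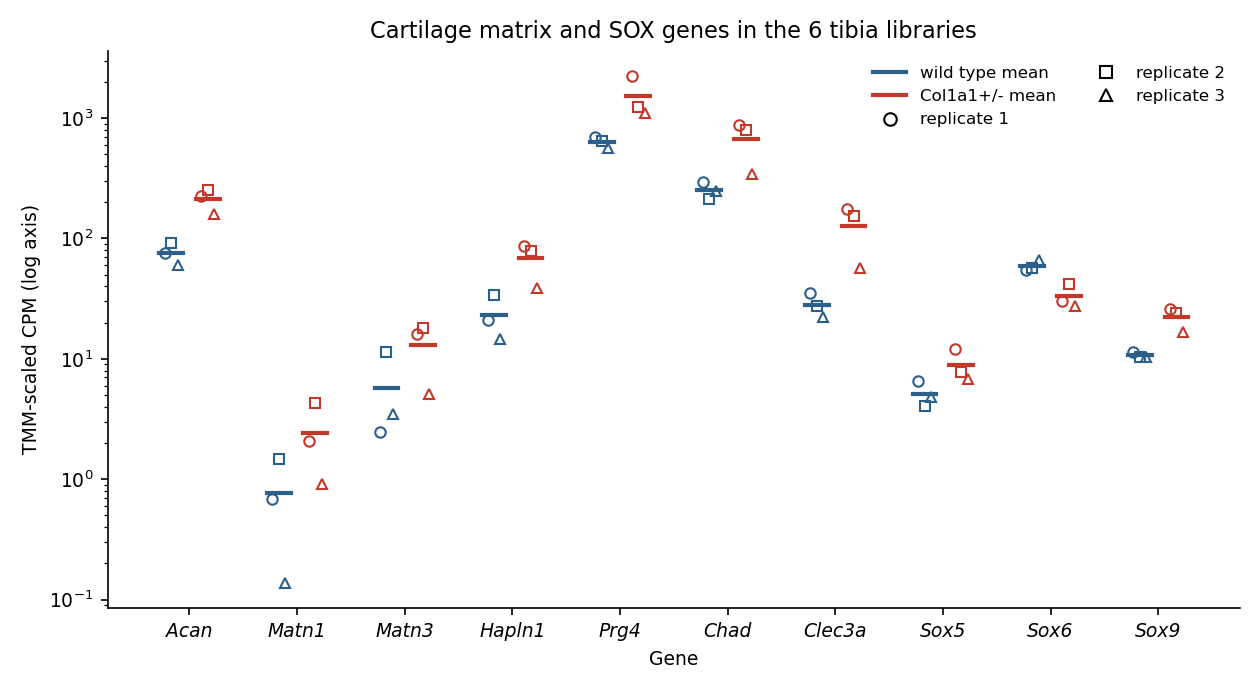
TMM-scaled CPM of the 10 genes in each library on a log axis, with wild type in blue, Col1a1+/- in red, a marker shape for each replicate number and bars at the group means. The red points lie above the blue ones in 7 genes, overlap them in Matn1 and Matn3, and lie below them in Sox6.

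Acan (ENSMUSG00000030607; chromosome 7, 78703231 to 78764847, GRCm39, plus strand) encodes aggrecan, the core protein that carries the chondroitin sulfate chains of cartilage. Libraries 1, 2 and 3 of Col1a1+/- gave 225, 253 and 158 CPM, and those of wild type gave 75.6, 91.5 and 60.3 CPM, in the order kept below. All 3 Col1a1+/- libraries were high and the lowest of them was well above the highest wild-type library. From a wild-type mean of 75.8 ± 15.6 CPM Acan rose 2.80-fold to 212 ± 48.6 CPM (SD over 3 libraries each). On the log2 scale this was 1.48 with an SE of 0.21 (adjusted p = 0.0218 by edgeR). With 1 library left out its log2 fold change lay between 1.34 and 1.68, and the call was lost without Col1a1+/- replicate 1 (1.46, adjusted p = 0.119), wild-type replicate 2 (1.64, 0.0633) or wild-type replicate 3 (1.34, 0.069).

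Hapln1 (ENSMUSG00000021613; chromosome 13, 89687915 to 89759771, plus strand) encodes the link protein that fastens aggrecan to hyaluronan. Its level was 86.8, 79.2 and 38.8 CPM in Col1a1+/- and 20.8, 33.9 and 14.8 CPM in wild type. The groups did not overlap, but Col1a1+/- replicate 3 came close to wild-type replicate 2. The log2 fold change of 1.56 (SE 0.40) did not pass the threshold over all genes (adjusted p = 0.0773 by edgeR), with a 95% interval from 0.60 to 2.52. Per kilobase of exon, the ratio of Hapln1 to Acan was 0.376 ± 0.0829 in wild type and 0.398 ± 0.0899 in Col1a1+/- (SD over 3 libraries each) and differed between the genotypes by less than its spread.

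Prg4 (ENSMUSG00000006014; chromosome 1, 150325163 to 150341916, minus strand) encodes lubricin, the lubricating glycoprotein of the joint surface that is made by superficial chondrocytes and by the synovial lining. It was at 2236, 1238 and 1109.5 CPM in Col1a1+/- and at 702.5, 643 and 562 CPM in wild type. Every Col1a1+/- library exceeded every wild-type library, and replicate 1 was far above its own group. Prg4 rose 2.40-fold (1528 ± 617 against 636 ± 70.5 CPM), a log2 fold change of 1.26 with an SE of 0.27 (adjusted p = 0.0405 by edgeR). Without Col1a1+/- replicate 1 the log2 fold change was 0.90 (adjusted p = 0.129), and the call was also lost without Col1a1+/- replicate 3 (1.47, 0.0825) or any of the wild-type replicates 1 to 3 (1.37, 1.27 and 1.18; adjusted p = 0.0608, 0.106 and 0.137). Of its exon length 4.77% is shared with Tpr on the opposite strand, and counting was without strand. Of 6 other markers of the synovial lining 3 had a log2 fold change above 0, and the median was -0.06. Called higher were 0 by edgeR and limma-voom and 1 by DESeq2 (3 at an unadjusted p under 0.05 in either direction). Clic5 was called lower (log2 fold change -0.69, adjusted p = 0.0497 by edgeR). Htra4 stood higher but was not called (0.60, adjusted p = 0.072 by edgeR). The summed level of the 6 was 229.5 to 251 CPM in Col1a1+/- and 261 to 286 CPM in wild type.

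Chad and Clec3a encode smaller matrix proteins. Chondroadherin, the product of Chad (ENSMUSG00000039084; chromosome 11, 94455873 to 94459953, plus strand), is a leucine-rich protein that binds collagen and chondrocytes. Chad counts came to 881, 791 and 346 CPM in Col1a1+/- and to 297, 211 and 248 CPM in wild type. Col1a1+/- replicate 3 lay just above wild-type replicate 1 and far below the other 2 of its genotype. Its log2 fold change was 1.42 (SE 0.34, adjusted p = 0.0602 by edgeR; 95% interval 0.63 to 2.21), which passed without Col1a1+/- replicate 3 (1.75, adjusted p = 0.0315). Clec3a (ENSMUSG00000008874; chromosome 8, 115144826 to 115152586, plus strand) encodes a C-type lectin domain protein of cartilage and had the highest fold change of the 10 genes. It took 175, 153 and 56.4 CPM in Col1a1+/- and 35.2, 27.3 and 22.3 CPM in wild type, so the groups were apart although replicate 3 of Col1a1+/- was again the low one. The means of 128 ± 63.0 and 28.3 ± 6.47 CPM gave a 4.53-fold rise (log2 fold change 2.18, SE 0.43, adjusted p = 0.0481 by edgeR). Like the call of Prg4, which held only without Col1a1+/- replicate 2 (1.40, adjusted p = 0.0344), this call was lost in 5 of the 6 fits with a library left out, all but that without Col1a1+/- replicate 3 (log2 fold change 1.90 to 2.40 and adjusted p = 0.0806 to 0.162 in those 5 fits, against 2.55 and 0.0241 without replicate 3).

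Matn1 and Matn3 encode matrilins, oligomeric adaptors that join collagen fibrils to proteoglycans. Matn3 (ENSMUSG00000020583; chromosome 12, 8997929 to 9022028, plus strand) was at 16.1, 18.1 and 5.12 CPM in Col1a1+/- and 2.48, 11.3 and 3.46 CPM in wild type. Matn1 (ENSMUSG00000040533; chromosome 4, 130671696 to 130682786, plus strand) was rare, with 69, 123 and 26 counts in Col1a1+/- and 22, 41 and 4 in wild type. In both genes the low Col1a1+/- replicate 3 fell under the high wild-type replicate 2, so the genotypes overlapped. The log2 fold changes of 1.19 (SE 0.70, adjusted p = 0.374 by edgeR) and 1.66 (SE 0.80, adjusted p = 0.269) had 95% intervals from -0.49 to 2.88 and from -0.21 to 3.53. The log2 fold change of Acan lies inside both intervals. Of 8 tested relatives of the matrix genes, among them matrilins, link proteins and hyalectans, 0 were called in either direction by edgeR or limma-voom and 1 was called higher by DESeq2 (4 at an unadjusted p under 0.05 by edgeR), with a median log2 fold change of 0.60. The 2 with the smallest p were Vcan, which encodes the broadly expressed aggrecan relative versican (0.84, adjusted p = 0.063), and Matn2 (0.51, adjusted p = 0.115).

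Compared per kilobase of exon, levels of the 10 genes spanned a wide range. In wild type Chad (150.1 ± 25.7 CPM per kb) and Prg4 (149 ± 16.5 CPM per kb) were highest and overlapped each other, followed by Clec3a (47.8 ± 10.95 CPM per kb) and Acan (10.2 ± 2.08 CPM per kb), each apart from its neighbours. Sox6, Hapln1, Sox9 and Matn3 then lay at 4.01, 3.92, 2.60 and 1.91 CPM per kb, each overlapping the next, and Matn1 and Sox5 were lowest at 0.384 and 0.356 CPM per kb. In Col1a1+/- the first 4 places were the same, though Prg4 and Clec3a now overlapped, with Chad at 400.4 ± 170.5, Prg4 at 357 ± 144, Clec3a at 217 ± 106.6 and Acan at 28.4 ± 6.51 CPM per kb. Sox6 moved from the fifth to the eighth place, at 2.25 ± 0.502 CPM per kb, below Hapln1 (11.6), Sox9 (5.38) and Matn3 (4.34), though its range overlapped those of its neighbours Matn3 and Matn1, and Sox9 and Matn3 overlapped too.

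Among the SOX genes Sox9 rose and Sox6 fell. Sox9 (ENSMUSG00000000567; chromosome 11, 112673050 to 112678586, plus strand) was at 26.1, 23.8 and 16.8 CPM in Col1a1+/- and at 11.5, 10.4 and 10.4 CPM in wild type. The wild-type libraries hardly differed among themselves, and all Col1a1+/- libraries were above them. Sox9 rose 2.07-fold (22.2 ± 4.85 against 10.8 ± 0.61 CPM), a log2 fold change of 1.05 with an SE of 0.18 (adjusted p = 0.0246 by edgeR). The fold change lay between 0.93 and 1.24 on the log2 scale with 1 library left out, and the call was lost without Col1a1+/- replicate 1 (0.93, adjusted p = 0.129), wild-type replicate 2 (1.02, 0.0747) or wild-type replicate 3 (1.02, 0.0872). Sox5 (ENSMUSG00000041540; chromosome 6, 143774151 to 144727703, minus strand) was at 12.2, 7.83 and 6.82 CPM in Col1a1+/- and 6.57, 4.02 and 4.78 CPM in wild type. Here Col1a1+/- replicate 3 and wild-type replicate 1 almost met, and the log2 fold change of 0.80 (SE 0.27) did not pass (adjusted p = 0.122 by edgeR; 95% interval 0.18 to 1.42). It passed without wild-type replicate 1 (1.06, adjusted p = 0.0473). An antisense gene, Sox5os1, covers 9.25% of the Sox5 exons and took 0 counts in every library. Reads on bases of both genes were counted for neither, so the 0 does not show that Sox5os1 was silent.

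Sox6 (ENSMUSG00000051910; chromosome 7, 115070107 to 115638031, minus strand) stood at 30.5, 41.8 and 27.7 CPM in Col1a1+/- and 54.7, 57.2 and 66.7 CPM in wild type. All Col1a1+/- libraries were low and none reached the lowest wild-type library. Its means were 33.3 ± 7.45 against 59.5 ± 6.31 CPM, a log2 fold change of -0.84 with an SE of 0.16 (adjusted p = 0.0329 by edgeR). The log2 fold change lay between -1.03 and -0.70 with 1 library left out. The call was lost without Col1a1+/- replicate 1 (-0.76, adjusted p = 0.147), Col1a1+/- replicate 3 (-0.70, 0.116), wild-type replicate 2 (-0.87, 0.0799) or wild-type replicate 3 (-0.75, 0.11). Within each library, where scaling plays no part, Sox6 took 53.3%, 57.9% and 61.2% of the counts per kilobase of the 3 SOX genes in wild type and 22.3%, 30.9% and 29.1% in Col1a1+/-. Sox9 took 40.1%, 37.9% and 34.2% in wild type and 68.5%, 63.2% and 63.5% in Col1a1+/-. Sox9 per Sox6, per kilobase, was 0.655 ± 0.0963 in wild type and 2.43 ± 0.556 in Col1a1+/- (SD over 3 libraries each), a ratio chosen after the values were seen and given without a test. By contrast Sox9 per Sox5 was 7.55 ± 1.48 and 8.87 ± 1.58, with overlapping genotypes.

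**Figure D2:**
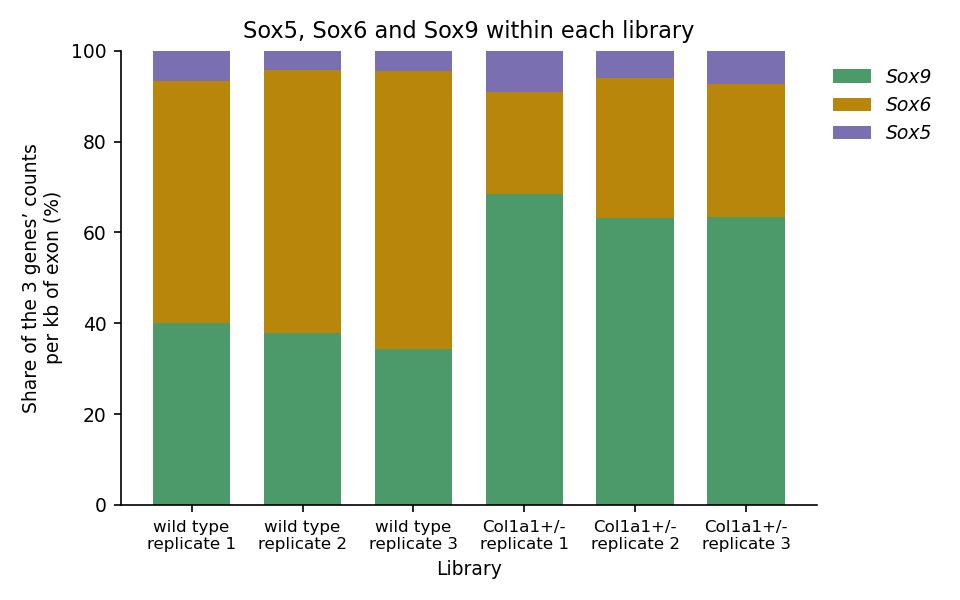
Share of Sox9 (green), Sox6 (ochre) and Sox5 (violet) in the counts per kilobase of exon that the 3 genes took together, as stacked percentages for each of the 6 libraries. Sox6 is the largest share in the wild-type libraries (53.3% to 61.2%) and Sox9 in the Col1a1+/- libraries (63.2% to 68.5%).

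Sox5 and Sox6 are close relatives, so their coding sequences were compared to see how much sequence their reads could share. The following 120 bases are those in which the pair is most alike, from the stretch that encodes the DNA-binding HMG box, with the Sox9 bases most like them, read from GENCODE M21 transcripts of the build GRCm38. Capitals mark bases that differ from Sox6.
Sox6: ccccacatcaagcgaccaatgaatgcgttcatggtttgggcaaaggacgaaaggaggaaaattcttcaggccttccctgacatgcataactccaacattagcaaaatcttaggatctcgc
Sox5: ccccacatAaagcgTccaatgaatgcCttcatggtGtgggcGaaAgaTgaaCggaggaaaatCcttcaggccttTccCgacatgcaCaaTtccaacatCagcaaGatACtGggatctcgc
Sox9: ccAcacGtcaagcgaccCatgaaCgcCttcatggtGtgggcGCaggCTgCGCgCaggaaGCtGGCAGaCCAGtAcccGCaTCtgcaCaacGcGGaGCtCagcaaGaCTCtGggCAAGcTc
Even here Sox5 differed from Sox6 at 18 of 120 bases (85% identical) and Sox9 at 47 (60.8% identical). The longest run of identical bases shared by Sox5 and Sox6 transcripts was 17, that shared by Sox6 and Sox9 was 12, and that shared by Sox5 and Sox9 was 18.

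Skeletal muscle markers were lower in the same libraries as Sox6. Beside a log2 fold change of -0.84 for Sox6, the 24 muscle markers had a median log2 fold change of -1.57, with Ryr1 (-1.55, adjusted p = 0.0279) and Neb (-1.59, adjusted p = 0.03), which encode the muscle calcium release channel and nebulin, at the smallest p. The muscle marker score, a mean of log2 CPM, was 7.67 to 9.24 in Col1a1+/- and 9.996 to 10.9 in wild type. It parted the genotypes, so a fit with it as a covariate cannot tell muscle from genotype for any gene. With the muscle marker score as a covariate the log2 fold change of Sox6 was -0.10 (SE 0.20, adjusted p = 0.938 by edgeR). Those of Acan and Sox9 were 1.86 (SE 0.40, adjusted p = 0.78) and 1.33 (SE 0.36, adjusted p = 0.78). With it the values of Hapln1, Chad, Clec3a, Matn1 and Matn3 were larger too (1.99, 2.05, 2.71, 3.01 and 2.60), whereas those of Prg4 and Sox5 were smaller: Prg4 went from 1.26 to 0.94 (SE 0.58) and Sox5 went from 0.80 to 0.53 (SE 0.59). With that covariate edgeR called 0 genes (1143 at an unadjusted p under 0.05) and 0 of the 10. Sox6 took 13.9, 10.01 and 14.2 counts per 10000 counts of the muscle list in Col1a1+/- and 9.23, 7.97 and 7.15 in wild type, so relative to the muscle list it was higher in every Col1a1+/- library. Of 11 erythroid markers 0 were called by edgeR, DESeq2 or limma-voom (0 at an unadjusted p under 0.05) and none parted the genotypes, with a median of -0.07 and a summed 401 to 494 CPM in Col1a1+/- and 376 to 582 CPM in wild type. Among 9 other Sox genes tested 0 were called by edgeR, DESeq2 or limma-voom (2 at an unadjusted p under 0.05), with a median of 0.07, and Sox13, the third member of the Sox5 and Sox6 group, stood at -0.04 (adjusted p = 0.92).

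Genes were ranked by how like their pattern over the 6 libraries was to that of Acan, Prg4, Sox9 or Sox6, a measure that includes the difference between genotypes. Among 13508 other genes with a symbol and at least 1 CPM, those whose log2 CPM about their own mean differed least from Sox9 were Enpp2 (root mean square difference 0.0847), Vit (0.0859) and Hhipl1 (0.113). Vit, which encodes vitrin, a matrix protein of the von Willebrand A domain family, was also on the list of other cartilage matrix genes and was called higher (log2 fold change 0.97, adjusted p = 0.0238). Those nearest Acan were Tnfrsf11b (0.154), Lgr6 (0.163) and Ihh (0.191), and those nearest Prg4 were Lgr6 (0.215), Zfp458 (0.222) and Colgalt2 (0.223). Tnfrsf11b was on the list of osteoblast markers (log2 fold change 1.43, adjusted p = 0.0239 by edgeR). Ihh was on that of chondrocyte regulators (1.44, adjusted p = 0.0383). Nearest to Sox6, a gene added to this comparison after its values were seen, were Slc25a42 (0.0403) and the glycolysis genes Pkm (0.0512) and Gpi1 (0.0524). Their log2 fold changes, which the measure holds close to that of Sox6, were -0.84, -0.89 and -0.80.

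All 7 genes of the collagens that share the cartilage matrix with these proteins had a log2 fold change above 0 (median 1.05). DESeq2 called 6 of them higher and edgeR on library totals 4 (6 at an unadjusted p under 0.05 by edgeR), and 2 rose by edgeR with TMM: Col2a1, the main collagen of cartilage fibrils (1.21, adjusted p = 0.046), and Col10a1, made by hypertrophic chondrocytes (2.14, adjusted p = 0.024). Without wild-type replicate 2 Col2a1 was at 1.54 (adjusted p = 0.0633), without Col1a1+/- replicate 3 Col10a1 was at 2.25 (adjusted p = 0.0725), and of the 6 fits with a library left out Col2a1 was called in 1 (without wild-type replicate 1) and Col10a1 in 2 (without Col1a1+/- replicate 2 or wild-type replicate 2). The matrix genes were therefore set against Col2a1 within each library, per kilobase. For Acan per Col2a1 the Col1a1+/- libraries gave 0.0896, 0.112 and 0.0956 and the wild-type libraries 0.111, 0.0704 and 0.0759. For Sox9 per Col2a1 these were 0.0188, 0.0190 and 0.0183 against 0.0304, 0.0145 and 0.0236. For the 9 genes other than Sox6, the genotypes overlapped in every one of these ratios, and the quotient of the mean ratios lay between 0.663 (Sox5) and 1.70 (Clec3a). Acan per Col10a1 was lower in Col1a1+/-, at 0.389, 0.334 and 0.283 against 0.583, 0.438 and 0.665. Of 19 ratios computed, all chosen with the values known and none tested, 4 parted the genotypes.

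Among the 7 cartilage collagens Col11a2 stood above Col2a1 per kilobase, at 571 against 287 CPM per kb in Col1a1+/- and 327 against 124 in wild type. Which cells of the tibia made the RNA of each collagen was not tested. When libraries were scaled on these 7 in place of all genes, the median log2 fold change of the 10 was 0.06, and that of all genes was -1.27. None of the 9 higher genes was then called, and Prg4 (-0.053), Sox5 (-0.57) and Sox9 (-0.27) changed sign. Clec3a remained highest at 0.79 (SE 0.43, adjusted p = 0.0814 by edgeR), and Sox6 stood at -2.13 (adjusted p = 3.16e-05). On libraries scaled by osteocyte markers, which set the median of all genes to -0.69, the 10 had a median of 0.79. There Clec3a (1.53, adjusted p = 0.000979) and Hapln1 (1.03, adjusted p = 0.0421) were called higher by edgeR and Sox6 lower (-1.50, adjusted p = 0.00146), against 10 of all genes higher and 2810 lower.

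**Figure D3:**
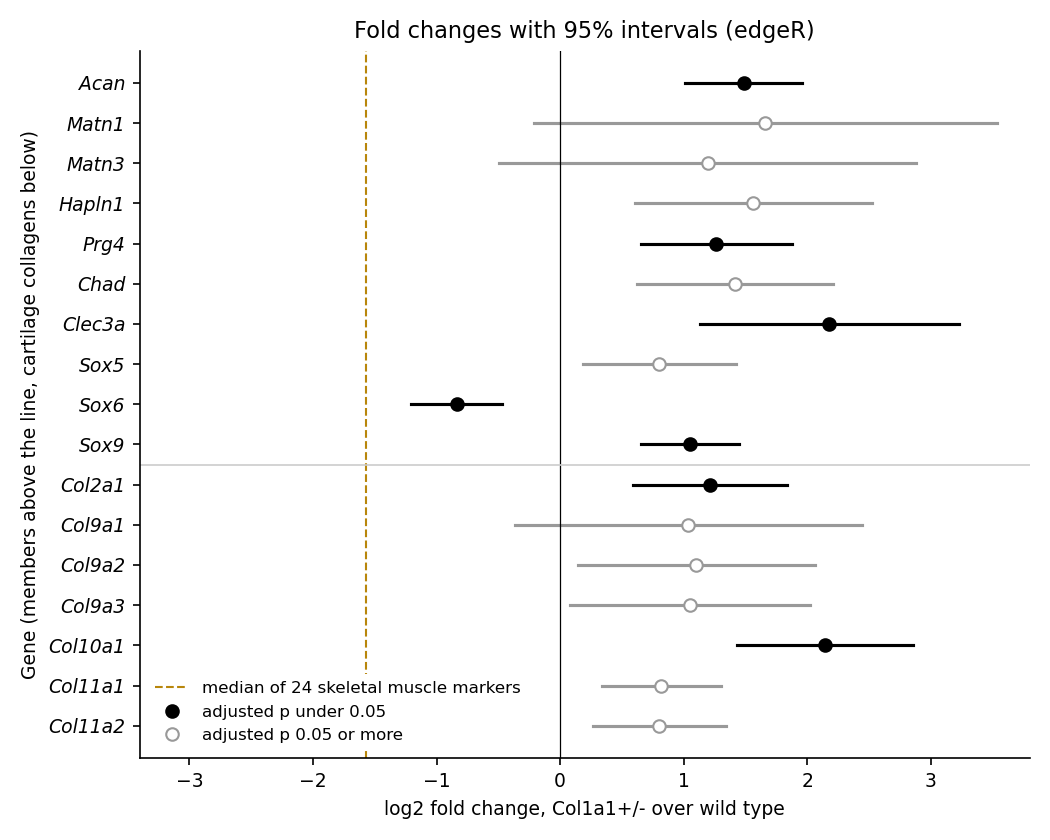
Log2 fold changes of Col1a1+/- over wild type with 95% intervals for the 10 genes (above the grey line) and 7 cartilage collagens (below it), filled where the adjusted p was under 0.05, with the median of 24 muscle markers as a dashed line. Sox6 (-0.84) is the only point left of 0, between 0 and the muscle median of -1.57, and the intervals of Matn1, Matn3 and Col9a1 cross 0.

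Read against all genes, the other processings gave these counts of the 10. DESeq2's size factors in edgeR called 4 higher and 1 lower (1.64% and 3.01% of all genes), library totals 6 and 1 (3.18% and 3.99%), and limma-voom 3 and 1 (1.40% and 2.94%). DESeq2 itself called 7 higher and 1 lower (4.26% and 7.93%). Without a filter the counts were 3 and 1 (1.78% and 2.75%), with a replicate block 4 and 0 (0.200% and 0.481%), and with an erythroid and neutrophil covariate 4 and 1 (0.659% and 4.09%). On osteocyte markers they were 2 and 1 (0.0540% and 15.2%) and on cartilage collagens 0 and 1 (0.0216% and 73.1%). Without Col1a1+/- replicate 2 they were 3 and 1 (0.874% and 3.96%), without replicate 3 they were 4 and 0 (0.166% and 0.0624%), and without wild-type replicate 1 they were 3 and 1 (3.12% and 6.15%). Without wild-type replicate 2 they were 0 and 0 (0.00522% and 0.0366%). Acan, Sox9 and Sox6 were each called in 10 of the 16 alternatives, Prg4 and Clec3a in 6, Hapln1 and Sox5 in 4, Chad in 3, and Matn1 and Matn3 in 0.

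**Figure D4:**
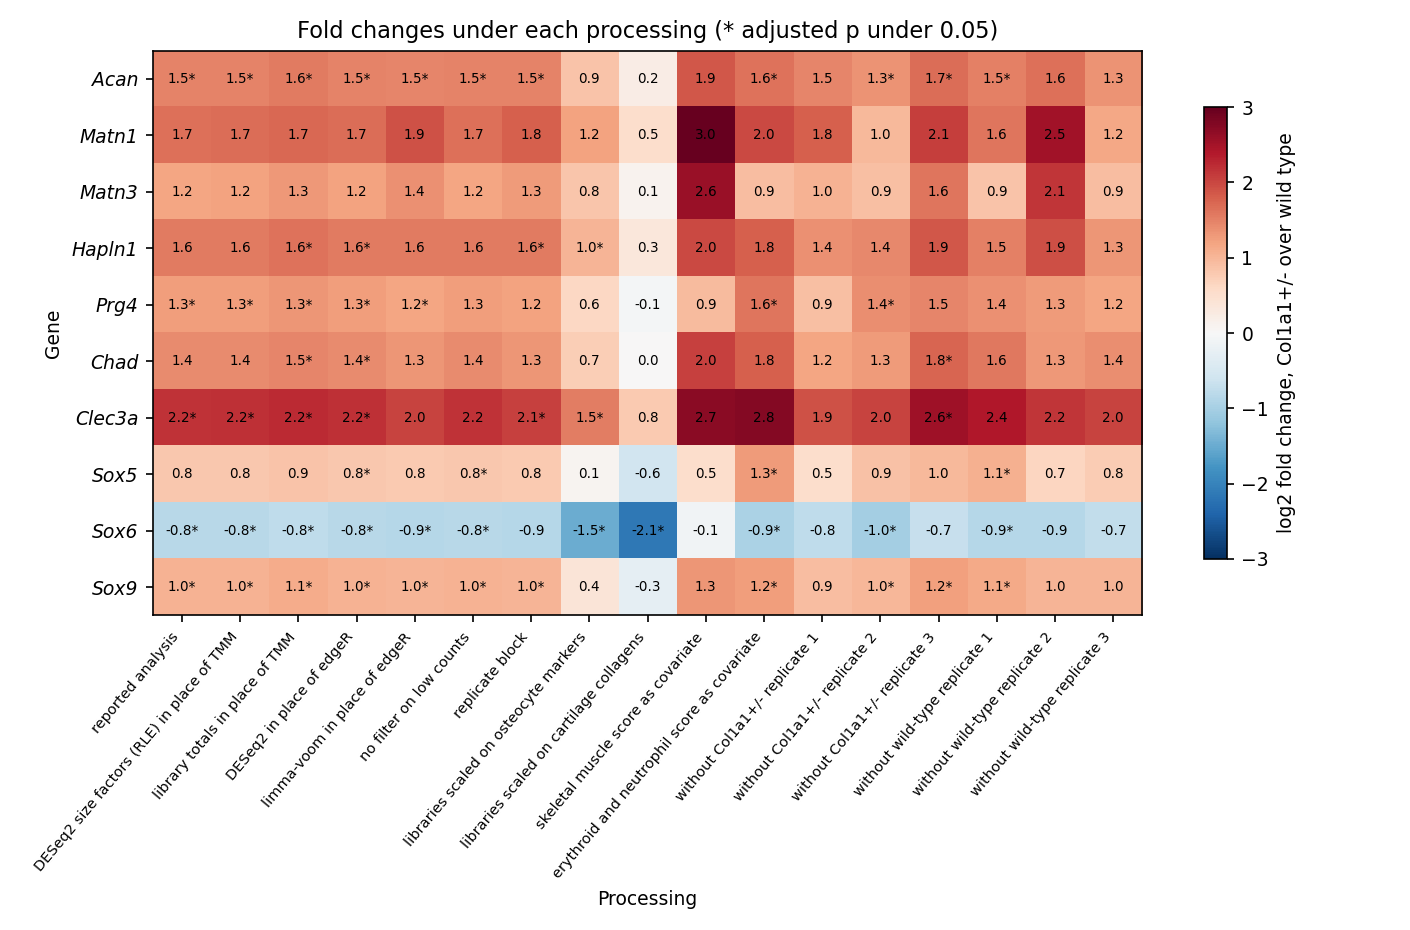
Log2 fold changes of the 10 genes (rows) under the reported analysis and 16 other processings (columns), coloured from blue for lower to red for higher in Col1a1+/-, with a star at an adjusted p under 0.05. Under scaling on cartilage collagens only Sox6 has a star. With the muscle covariate, which cannot be told apart from genotype, Sox6 is at -0.10.

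Of 12 tested cartilage matrix genes outside the 10 and the collagens, all had a log2 fold change above 0 (median 1.07), 8 were called higher by DESeq2 (9 at an unadjusted p under 0.05 by edgeR), and 2 rose by edgeR, Vit and Comp, the latter encoding cartilage oligomeric matrix protein (736 ± 229 CPM in Col1a1+/-, 313 ± 22.3 CPM in wild type; 1.23, adjusted p = 0.0299). Of 22 regulators of chondrocytes, 9 rose and 2 fell, with a median of 0.52. Ptch1, the hedgehog receptor and target (0.59, adjusted p = 0.0232), and Trps1, a repressor of the growth plate (0.65, adjusted p = 0.0239), had the smallest p among those that rose. Mef2c (-0.67, adjusted p = 0.0341) and Barx2 (-2.12, adjusted p = 0.0469) fell, and both are known in muscle as well as in cartilage. Of 9 genes for aggrecan-cleaving proteases and inhibitors 0 were called by edgeR and limma-voom and 3 were called higher by DESeq2 (5 at an unadjusted p under 0.05), 5 were higher without overlap, and the median was 0.51. Adamts9 had the smallest p (0.58, adjusted p = 0.0566). Tendon, another tissue that makes lubricin, was represented by 7 markers with a median of -0.49, of which edgeR and limma-voom called 0 and DESeq2 2 lower (2 at an unadjusted p under 0.05 by edgeR), at a summed 191 to 256 CPM in Col1a1+/- and 191 to 314 CPM in wild type.

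**Figure D5:**
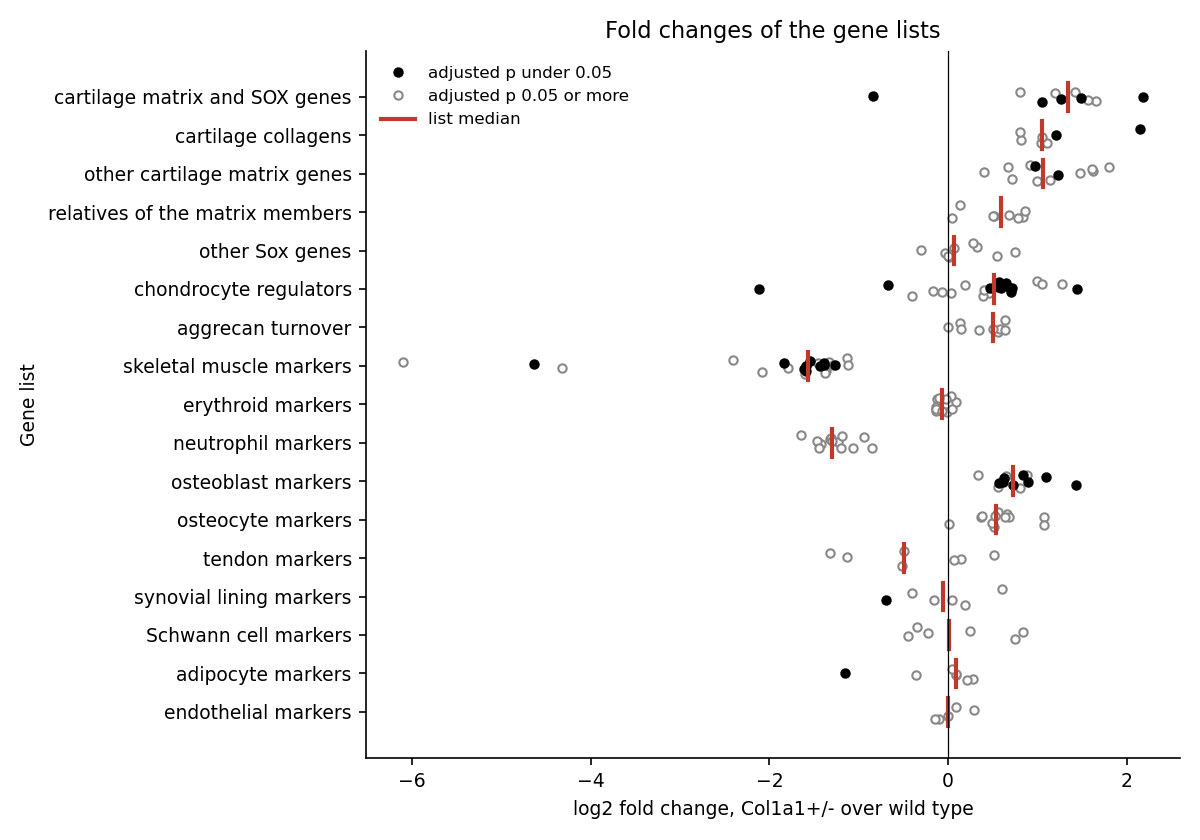
Log2 fold changes of Col1a1+/- over wild type for the genes of each list (points, filled at an adjusted p under 0.05) with the list median in red. The 3 cartilage lists at the top have medians between 1.05 and 1.34, the other Sox genes lie near 0 (median 0.07) and the skeletal muscle markers lie lowest (median -1.57).

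The bases before their start sites were read from RefSeq promoters of the build GRCm38.p6, which held 7 of the 10 genes in 12 windows. Each window is the 250 bases before a start. The hexamers ACAAAG and AACAAT, which resemble the core bound by SOX proteins, were searched on both strands. Of 32851 such windows over all genes, 16.5% held the first, 9.42% the second and 24% either. None of the 6 windows of Acan, Matn1, Matn3, Hapln1, Chad and Sox5 held either, and 5 of the 6 Sox6 windows did. The Sox6 windows are starts of the same gene, and the shares over all genes were not matched for G and C content. Whether any match bears on expression was not tested. The Acan window (chr7:79052976-79053225, plus strand) is shown because Acan rose, and the Sox6 window with the most matches (chr7:115824711-115824960, minus strand) because Sox6 fell. Capitals mark matches, none of which overlapped another.
Acan: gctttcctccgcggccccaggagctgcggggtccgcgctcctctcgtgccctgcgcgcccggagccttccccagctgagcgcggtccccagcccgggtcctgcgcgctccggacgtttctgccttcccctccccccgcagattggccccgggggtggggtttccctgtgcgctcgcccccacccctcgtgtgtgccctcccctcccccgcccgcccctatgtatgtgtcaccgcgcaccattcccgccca
Sox6: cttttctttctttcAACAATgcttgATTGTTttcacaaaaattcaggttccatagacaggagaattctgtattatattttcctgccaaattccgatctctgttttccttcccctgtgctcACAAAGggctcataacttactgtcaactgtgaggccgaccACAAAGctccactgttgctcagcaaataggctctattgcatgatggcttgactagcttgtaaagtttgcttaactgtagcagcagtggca
The Acan window was 74.4% G and C and that of Sox6 41.6%. A match describes these letters alone, and its absence from 250 bases says nothing of sites elsewhere.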

How the data were processed

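Polyadenylated RNA of 6 tibia samples was sequenced. The authors deposited unnormalised counts of reads for each gene of each library. Trimmomatic 0.39, HISAT2 2.2.1 and SAMtools 1.20 were used, per the submitters' processing notes. featureCounts 2.0.3 counted reads over exons of Ensembl release 107 on GRCm39, per the file headers, with each mate counted as 1 read, without strand and without reads that map to several places or genes. Coordinates of genes are those of the files. Symbols came from an identifier table that named 52073 of 56748 identifiers (91.8%).

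Genes were kept by filterByExpr, scaled by TMM and compared with edgeR 4.0.16 in R 4.3.3 (quasi-likelihood F test, robust, genotype as the only term, two-sided, Benjamini-Hochberg adjusted over 18514 genes). SEs were derived from the fold change and its F statistic (the size of the first over the root of the second), and 95% intervals use the test's own degrees of freedom. Patterns over libraries used log2 CPM with a prior count of 2. DESeq2 1.42.0, limma-voom 3.58.1, other scalings, covariates, a replicate block and fits with 1 library left out were alternatives. Total counts of 26.8 to 32.4 M make counting error small for most of the 10 genes. With 3 against 3 libraries an exact permutation test cannot go below p = 0.1. Libraries of a genotype differed by 23.3 to 78.1 times the counting variance, so none was a copy.

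The 10 genes, the 17 gene lists and the tests were chosen with earlier results of these data known. Named are the 10 genes, the cartilage collagens, of each other list up to 4 genes (in each direction the 2 of smallest p), and the 3 genes nearest in pattern to Acan, Prg4 and Sox9, so far as the text takes them up. The 3 genes nearest to Sox6 were added after its values were seen, and Tpr and Sox5os1 are named for their overlap with exons. Col1a1 is named as the gene of the genotype labels, and Col1a2 as that of its partner chain. Coding sequences are the longest open reading frames of GENCODE M21 transcripts, and promoters are from RefSeq on GRCm38.p6, with no coordinate moved between builds.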

Additional observations from a re-analysis of the deposited data

How the results depend on the processing

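Counts of calls over all genes, the 10 genes and the cartilage collagens, the median of the 10, and the fold changes of these 17 genes were recomputed in 16 other ways. Ratios, shares, ranks, neighbours and the other lists were not, apart from list counts by DESeq2 and limma-voom. Over all genes, 265 were called higher and 538 lower, and with 1 library left out these counts ran from 0 to 594 and from 0 to 1172. Of the 10 genes, 4 were called higher and 1 lower, and with 1 library left out 0 to 4 and 0 to 1. Library totals called 588 genes higher. DESeq2 called 788 higher and 1468 lower, with 7 of the 10 higher (Hapln1, Chad and Sox5 added). Without a filter on low counts 577 were higher and 895 lower. Scaling on osteocyte markers gave 10 higher and 2810 lower (2 of the 10 higher), and scaling on cartilage collagens 4 and 13531 (0 of the 10 higher), with medians of all genes at -0.69 and -1.27. The muscle covariate gave 0 and 0 (0 and 0 of the 10), and the erythroid and neutrophil covariate 122 higher, with calls higher at 13.9% against 33% in the reported analysis. Library totals gave 44.3% and the scaling on osteocyte markers 0.355%. With 1 library left out that share was 72.7% (32 of 44 calls) without Col1a1+/- replicate 3 and 18.1% without replicate 2. Under the scaling on cartilage collagens the log2 fold change turned for Prg4 (-0.053), Sox5 (-0.57), Sox9 (-0.27), Col9a1 (-0.095), Col9a2 (-0.057), Col9a3 (-0.10), Col11a1 (-0.37) and Col11a2 (-0.39), and it turned for none of the 10 under any other alternative. This scaling moves all genes down together and centres the 7 collagens on about 0 by its construction: the median of the 10 less that of all genes was 1.32, against 1.35 with TMM. For the other shifts the cause was not tested.

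The labels give both genotypes the numbers 1 to 3 but no pairing. Deviations of same-numbered libraries correlated at 0.107, 0.0413 and -0.122 over genes, and 2 of 3 Col1a1+/- libraries were closest to another number. The deviations of 3 libraries about their own mean depend on each other, so these values neither show nor exclude a pairing. With a replicate block 37 genes were higher and 89 lower, with 4 of the 10 higher (Acan, Hapln1, Clec3a and Sox9) and 0 lower (Sox6 -0.85, adjusted p = 0.0598). Depth limits Matn1 most, at 4 counts in 1 wild-type library.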
